A study of Mus musculus with 8 samples.

Results

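The genes described here are the structural genes of the lipid droplet, 10 in all out of 34866 genes in the deposited table: the perilipins Plin1 to Plin5, Cidec, the seipin gene Bscl2, Fitm2, Cav1 and Cavin1. They were chosen by symbol, from what their proteins do, with earlier results of these data known. All 10 were found in the table. RNA came from epididymal white adipose tissue of male mice. All 8 libraries carried loxP-flanked copies of the aromatase gene Cyp19a1. The 4 control libraries were Aromatase flox/flox, and the 4 knockout libraries were aP2-Cre;Aromatase flox/flox, that is, the same floxed alleles with a Cre recombinase transgene driven by the aP2 (Fabp4) promoter. Age, strain and diet are not given in the sources used here. The aP2 promoter is not limited to adipocytes, since macrophages and some endothelial cells also use it, and a group with the transgene and no floxed allele was not analysed here. The submitters set out to find aromatase targets in fat that act on phosphorus metabolism.

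A white adipocyte stores triglyceride in a single large droplet bounded by a phospholipid monolayer, and the proteins on that surface decide how the droplet is formed, how it grows and when lipases reach it. Droplets bud from the endoplasmic reticulum with the help of seipin and FIT2, grow by transfer of lipid from small to large droplets through CIDE proteins, and are coated by perilipins. Caveolae, the small invaginations that cover the adipocyte plasma membrane, are built from caveolins and cavins and are needed for normal lipid storage. Certain variants in the genes of seipin, perilipin 1, CIDEC, caveolin 1 or cavin 1 cause lipodystrophy in people. Perilipin genes are textbook targets of the PPAR nuclear receptors, and C/EBP alpha acts beside PPAR gamma in fat cells.

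The control libraries held 1538427 to 3045488 estimated counts and the knockout libraries 2237345 to 3053565. The smallest was control replicate 4, and the values that follow show where it stood apart. Cyp19a1 itself had 1 to 5.017 estimated counts per control library and 0 to 4 per knockout library, so the deletion could not be checked here (two-sided exact permutation p = 0.629, the smallest p that 4 against 4 allows being 0.0286). The adipocyte hormone gene Adipoq lay between 2387 and 3388 CPM in controls and between 2091 and 3780 CPM in knockouts. It is 1 of 14 adipocyte markers, of which 11 had negative and 3 positive estimates, knockout over control, as given further below. Of 6 epididymal epithelium markers, 3 were at 0 in every library. CPM are counts brought to the same library size, which was adjusted by trimmed mean of M values (TMM) factors. The labels do not say that the libraries come from separate animals, so p-values measure the spread between these samples.

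None of the droplet genes passed the test between genotypes. In edgeR's quasi-likelihood test 0 of the 10 had an adjusted p under 0.05, beside 0.168% of the 12480 genes tested, and 0 had an unadjusted p under 0.05, beside 6.39% of all tested genes. DESeq2 and limma-voom with quality weights also gave 0 at either threshold. The control and knockout libraries overlapped in all 10 genes, where 4.23% of all tested genes showed no overlap. Of the 10 log2 fold changes, knockout over control, 7 were negative and 3 positive, where 49.7% of all tested genes were positive. Their median was -0.05, beside -0.0014 for all tested genes. The 95% intervals bound what could have been missed: 8 of the 10 lay wholly within a 1.5-fold change in either direction, and the exceptions were Plin5 and Bscl2. In bulk tissue, fewer cells of a type and less RNA per cell cannot be told apart.

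**Figure D1:**
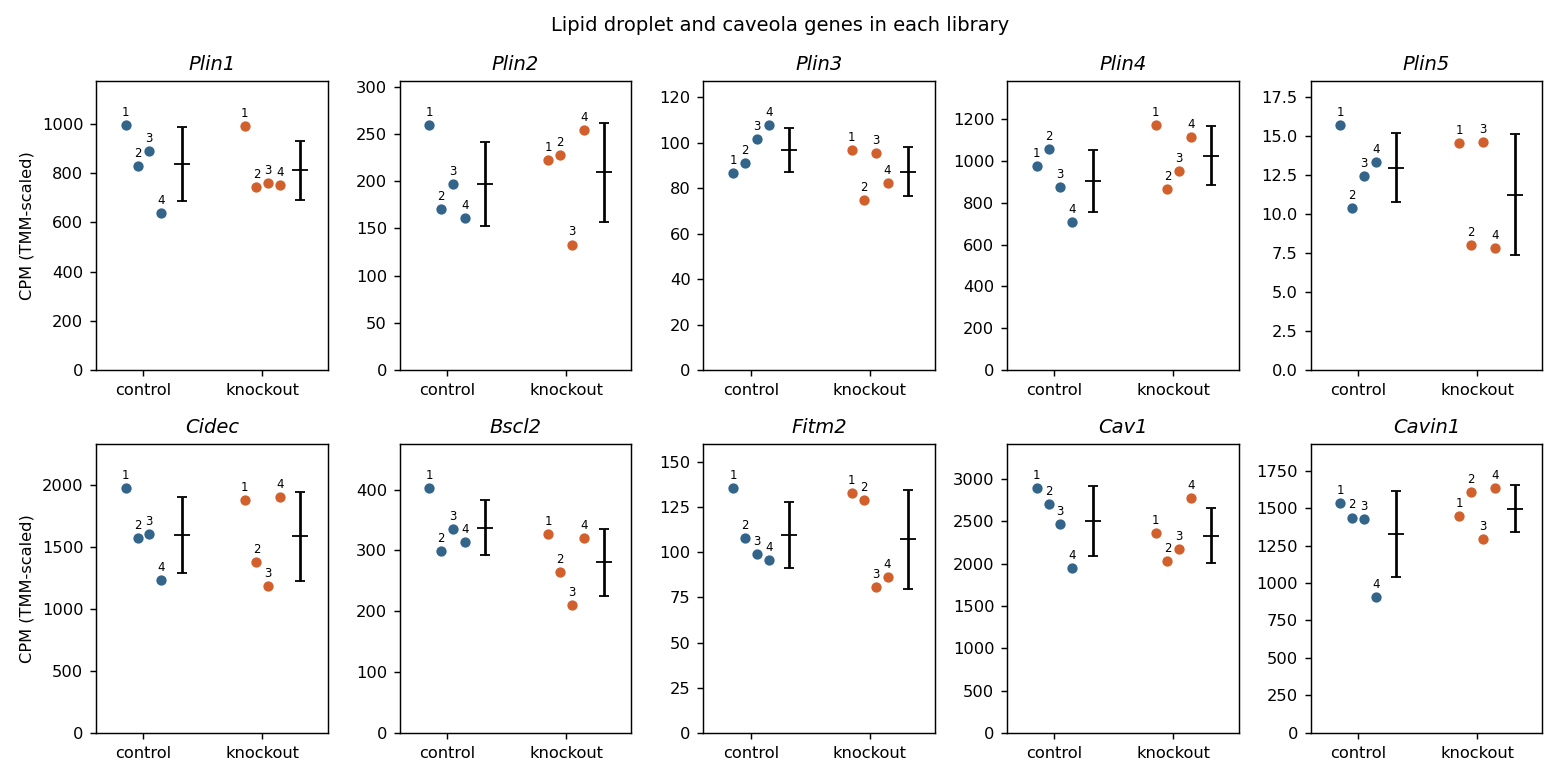
CPM (vertical axis, starting at 0) of the 10 genes in the 4 control and 4 knockout libraries; points are libraries with their replicate number, and the bar is the mean ± SD. The genotypes overlap in every panel, and control replicate 4 is the lowest library for Plin1, Plin4, Cav1 and Cavin1.

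Among the coat proteins, Plin1 encodes the main perilipin of the white adipocyte, which keeps lipases away from the droplet until protein kinase A phosphorylates it. Plin1 (chromosome 7, 79720218 to 79732903, GRCm38) stood at 994.7, 830.4, 888.5 and 638.3 CPM in controls and at 989.4, 744.7, 760.6 and 751.0 CPM in knockouts, each given here and for the other genes in the order of replicates 1 to 4. Knockout replicate 1 was as high as the highest control, the other 3 knockout libraries lay close together, and the lowest value of all was a control. The means were 838.0 ± 149.5 and 811.4 ± 118.8 CPM (SD, n = 4). The log2 fold change was -0.05, with a 95% interval of -0.36 to 0.27 (edgeR adjusted p = 0.982).

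Plin4, a perilipin with a long repeated amphipathic helix that coats small nascent droplets, had the most positive estimate of the 10 with all libraries. It lies on chromosome 17 (56100591 to 56109803) only 1.8 kb from Plin5, on the same strand, and Plin3 is on that chromosome too. Plin4 was at 974.7, 1054, 876.5 and 708.2 CPM in controls and at 1170, 866.0, 950.2 and 1112 CPM in knockouts. The highest 2 libraries were knockouts and the lowest was control replicate 4, with the others intermixed. The log2 fold change was 0.18 (95% interval -0.12 to 0.49, edgeR adjusted p = 0.922).

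Plin2 encodes the perilipin found in nearly all cell types, including lipid-laden macrophages, and its protein is stable only when bound to droplets. Plin2 (chromosome 4, 86648386 to 86670060) was at 259.3, 170.8, 197.3 and 161.3 CPM in controls and at 222.4, 227.9, 133.0 and 253.8 CPM in knockouts. Knockout replicates 1, 2 and 4 lay above every control except replicate 1, and knockout replicate 3 was the lowest library of all. For Plin2 the log2 fold change was 0.08, with a 95% interval of -0.36 to 0.53 (edgeR adjusted p = 0.982). It was 0.247 without knockout replicate 3 and -0.027 without knockout replicate 4. In the same libraries 5 of 14 macrophage markers passed an edgeR adjusted p of 0.05, beside 0.168% of all tested genes, and 9 did not. The marker list was chosen with earlier results of these data known. All 14 had positive estimates, beside 49.7% of all tested genes, and they summed to 1099 to 1307 CPM in controls and 1883 to 2248 CPM in knockouts. A sum weighs abundant genes most, and the estimates were uneven. Their log2 fold changes ran from 0.11 to 1.54, with a median of 0.54. The part of macrophages in the Plin2 level was not tested.

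Plin3, a perilipin that moves between the cytosol and young droplets and is made in most tissues, spanned a narrow range. Plin3 (chromosome 17, 56277476 to 56292873) was at 86.68, 90.87, 101.5 and 107.7 CPM in controls and at 96.90, 74.68, 95.27 and 82.23 CPM in knockouts. The lowest 2 libraries were knockouts and the highest 2 were controls, with the other 4 mixed between them. The estimate was -0.14 on the log2 scale (95% interval -0.41 to 0.13, edgeR adjusted p = 0.924).

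Plin5 encodes the perilipin of oxidative tissues such as heart, muscle and brown fat, where it tethers droplets to mitochondria. In this white depot Plin5 (chromosome 17, 56111601 to 56117596) rested on only 20 to 45.3 estimated counts per library. Its CPM were 15.68, 10.37, 12.44 and 13.34 in controls and 14.52, 7.996, 14.61 and 7.80 in knockouts. Knockout replicates 2 and 4 were the lowest of all, while knockout replicates 1 and 3 lay at the level of the higher controls. The interval of its log2 fold change was the widest of the 10, from -0.84 to 0.42 around -0.21 (edgeR adjusted p = 0.949).

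Cidec encodes the fat-specific CIDE protein that joins droplets and drives lipid from the smaller to the larger one, giving the single droplet of white fat. Cidec (chromosome 6, 113424634 to 113435760) was at 1977, 1571, 1601 and 1234 CPM in controls and at 1875, 1382, 1184 and 1906 CPM in knockouts. Each genotype held libraries near the top and near the bottom of the range, and the means were 1596 ± 303.6 and 1587 ± 360.1 CPM (SD, n = 4). The log2 fold change was -0.01 (95% interval -0.39 to 0.37, edgeR adjusted p = 0.998).

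The droplet biogenesis genes were Bscl2 and Fitm2. Bscl2 encodes seipin, the ring-shaped protein at the contact between endoplasmic reticulum and droplet, and had the most negative estimate of the 10 genes with all libraries, though not in every fit that left out a library. Bscl2 (chromosome 19, 8837467 to 8848683) was at 403.0, 298.8, 334.7 and 314.5 CPM in controls and at 326.7, 265.0, 209.8 and 320.8 CPM in knockouts. Knockout replicates 2 and 3 were below every control, whereas knockout replicates 1 and 4 lay among the controls. The means were 337.8 ± 45.93 and 280.6 ± 54.74 CPM (SD, n = 4), and the log2 fold change of -0.27 had a 95% interval of -0.59 to 0.05 (edgeR unadjusted p = 0.0911, adjusted p = 0.846). It was -0.153 without knockout replicate 3 and -0.348 without knockout replicate 1. Bscl2 overlaps Gng3 on the opposite strand by 398 exonic bases, and whether the counting used strand is not given in the sources used here, so reads of the pair may not be told apart. Bscl2 also shares 239 exonic bases on the same strand with AC129217.1, a gene not in the deposited table.

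Fitm2 encodes FIT2, an endoplasmic reticulum enzyme needed for droplets to bud towards the cytosol. Fitm2 (chromosome 2, 163466379 to 163472629) was at 135.7, 107.7, 99.12 and 95.91 CPM in controls and at 133.0, 128.9, 80.72 and 86.13 CPM in knockouts. The knockout group split into a pair of libraries near the top of the range and a pair below every control. Its log2 fold change was -0.04 (95% interval -0.43 to 0.34, edgeR adjusted p = 0.986). Fitm2 overlaps 2310001K24Rik, a gene not in the deposited table, on the opposite strand by 227 exonic bases.

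**Figure D2:**
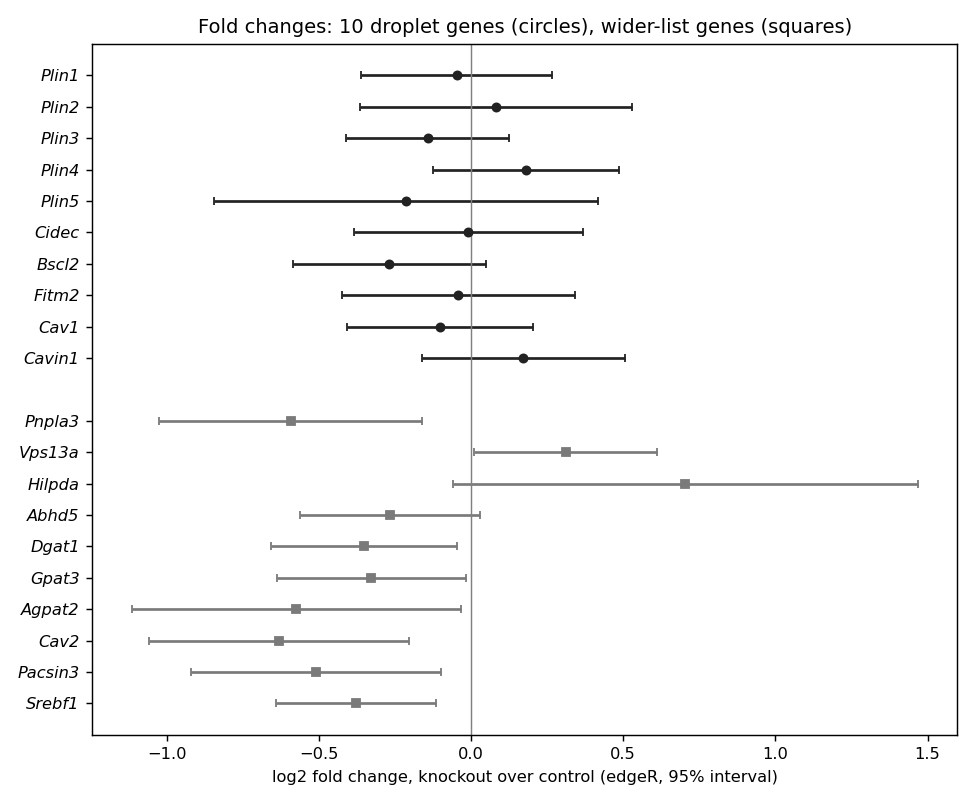
Log2 fold change, knockout over control, with its 95% interval from the edgeR fit (horizontal axis), for the 10 droplet genes (circles) and for the genes named from the wider lists (squares). All 10 circles have intervals that include 0, from -0.84 to 0.42 for Plin5 at the widest.

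Caveolae were represented by Cav1 and Cavin1. Caveolin 1 is the membrane-inserted coat protein of the caveola, and it also reaches the droplet surface. Cav1 (chromosome 6, 17306335 to 17341452) was at 2894, 2704, 2463 and 1945 CPM in controls and at 2357, 2026, 2167 and 2772 CPM in knockouts. Control replicate 4 was the lowest of the 8, and the remaining controls overlapped only with knockout replicate 4. The log2 fold change was -0.10 with all libraries (95% interval -0.41 to 0.20, edgeR adjusted p = 0.949). It was -0.21 without control replicate 4 and -0.0253 without control replicate 1.

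Cavin 1 is the peripheral coat protein that stabilises caveolae. Cavin1 (chromosome 11, 100956733 to 100970887) was at 1537, 1437, 1428 and 905.7 CPM in controls and at 1446, 1605, 1295 and 1635 CPM in knockouts. Control replicate 4 again stood far below the rest, and the other 7 libraries were intermixed. The log2 fold change of 0.17 (95% interval -0.16 to 0.51, edgeR adjusted p = 0.929) shrank to 0.03 without that library. Caveolins and cavins are abundant in endothelium as well as in adipocytes, and the summed level of 10 endothelial markers in control replicate 4 was 548 CPM, where the other controls had 862 to 1042 and the knockouts 792 to 992 CPM. The part of endothelial cells in these values was not tested.

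Libraries of the same genotype differed in these genes. Control replicate 1 was the highest library for 7 of the 10 genes, where 11.4% of all tested genes had their highest value in it. Control replicate 4 was the lowest library for 4 genes (Plin1, Plin4, Cav1 and Cavin1) and knockout replicate 3 for another 4 (Plin2, Cidec, Bscl2 and Fitm2), against 18.4% and 10.9% of all tested genes. The highest library exceeded the lowest by 1.44-fold for Plin3 to 2.01-fold for Plin5. The median within-group SD of log2(CPM + 1) over the 10 genes was 0.249 in each genotype. Over all 12480 tested genes it was 0.271 among controls and 0.257 among knockouts. For tested genes of at least 50 CPM, a level that Plin5 did not reach, it was 0.182 among controls and 0.167 among knockouts. Together the 10 genes took 0.627% to 0.88% of the counts in controls and 0.728% to 0.899% in knockouts.

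**Figure D3:**
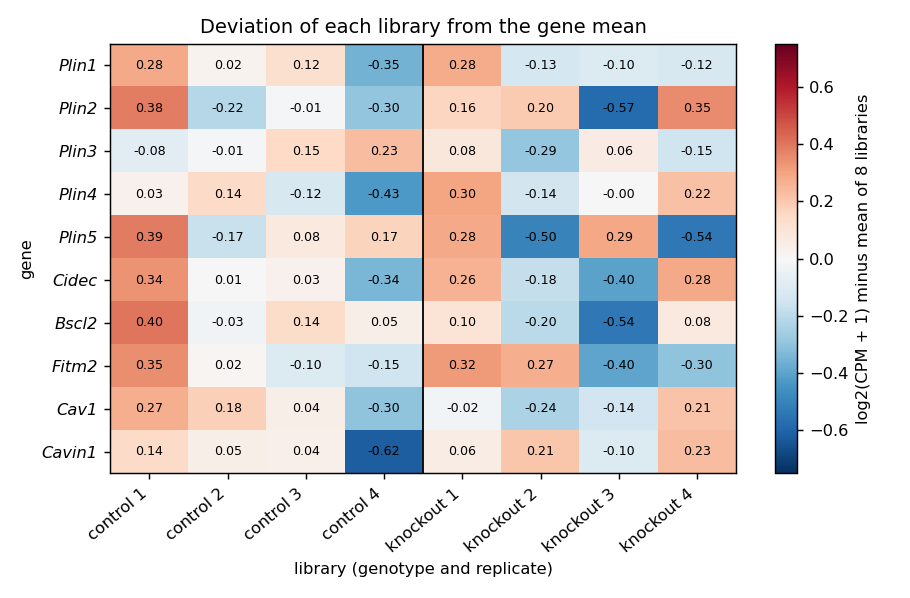
Deviation of log2(CPM + 1) in each library (columns) from the mean of the 8 libraries, for the 10 genes (rows); red is above and blue below the mean. Control replicate 1 is red in most rows, Cavin1 and Plin4 are blue in control replicate 4, and Plin2 and Bscl2 are blue in knockout replicate 3.

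Within this set, Plin1 ran closest to Cidec, with a mean absolute difference of 0.117 between their centred log2(CPM + 1) profiles over the 8 libraries, then to Cav1 at 0.135 and Plin4 at 0.144. Plin1 differed most from Plin5, at 0.256, and Plin2, at 0.240. Plin2 was also closest to Cidec, at 0.134. Among the 7387 other tested genes of at least 20 CPM, the profiles nearest to Plin1 were those of Ssh2, Pccb, Acad11, Man2a2 and the insulin receptor gene Insr, at 0.0473 to 0.0644, where the median gene was at 0.234. For Plin2 the nearest were a gene listed only as ENSMUSG00000111640.1, Prex2, Cyp4b1, the macrophage lectin gene Clec10a and Bmi1, at 0.0678 to 0.118, with the median gene at 0.308. The log2 ratio of Plin2 to Plin1 within a library averaged -2.09 ± 0.16 over controls and -1.99 ± 0.433 over knockouts (SD, n = 4). It was highest in knockout replicate 4, at -1.57, and lowest in knockout replicate 3, at -2.52, so the knockout libraries enclosed the whole control range.

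The start-site windows of these genes were searched for the motifs of PPAR and C/EBP factors, because the levels of those factors were measured in the same libraries. The 10 genes had 16 RefSeq windows (GRCm38.p6), each of which runs from 250 bases before to 50 bases after an annotated start. A PPAR element, AGGTCANAGGTCA on either strand with up to 2 mismatches, was found in 2 of the 16 windows, of Plin2 and Cav1. It was found in 3.86% of all windows. A C/EBP palindrome, TTGCGCAA with up to 1 mismatch, was found in 2 of the 16 windows, of Plin1 and Cidec, and in 5.92% of all windows. An E-box, CACGTG, was searched as well and found in 1 of the 16 windows, that of Plin2, and in 7.15% of all windows. It lies 4 bases before the annotated start and is left in lower case below. The windows of Plin1, Cidec and Plin2, the genes whose profiles were compared above, follow. They are shown 5′ to 3′ on the gene's strand, with the PPAR or C/EBP match in capitals. They are chr7:79732727-79733026 for Plin1, chr6:113434715-113435014 for a second annotated start of Cidec, and chr4:86670010-86670309 for Plin2, all on the minus strand.
Plin1: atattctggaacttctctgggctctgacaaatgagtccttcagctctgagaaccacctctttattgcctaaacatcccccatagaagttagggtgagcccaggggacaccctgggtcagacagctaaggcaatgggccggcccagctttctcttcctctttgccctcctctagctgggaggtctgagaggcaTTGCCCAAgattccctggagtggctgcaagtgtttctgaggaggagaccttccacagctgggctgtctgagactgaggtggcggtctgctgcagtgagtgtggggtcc
Cidec: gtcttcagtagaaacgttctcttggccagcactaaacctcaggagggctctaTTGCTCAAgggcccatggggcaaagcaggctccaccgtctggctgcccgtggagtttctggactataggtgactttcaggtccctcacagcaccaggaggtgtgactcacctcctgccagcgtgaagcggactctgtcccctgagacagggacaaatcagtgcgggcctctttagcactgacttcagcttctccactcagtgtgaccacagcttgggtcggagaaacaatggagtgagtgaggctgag
Plin2: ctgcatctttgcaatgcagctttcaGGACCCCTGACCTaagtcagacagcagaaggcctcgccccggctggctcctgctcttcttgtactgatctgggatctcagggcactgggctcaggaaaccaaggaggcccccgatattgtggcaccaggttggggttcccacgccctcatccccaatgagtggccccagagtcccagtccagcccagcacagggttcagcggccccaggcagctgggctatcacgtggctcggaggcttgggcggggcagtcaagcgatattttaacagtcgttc
The capitals begin 58 bases before the annotated start in Plin1, 198 before it in Cidec and 225 before it in Plin2. These are letter matches and not measured binding sites.

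None of 14 listed regulators of adipocyte genes passed an adjusted p of 0.05, and 1 had an unadjusted p under 0.05, a share near the 6.39% of all tested genes. That gene was Srebf1, which encodes the sterol regulatory factor SREBP1 of lipid synthesis. Srebf1 was at 198.5, 200.0, 186.5 and 232.5 CPM in controls and at 166.5, 131.5, 150.6 and 179.4 CPM in knockouts, without overlap, as were 4.23% of all tested genes (log2 fold change -0.38, 95% interval -0.64 to -0.12, edgeR adjusted p = 0.507). Pparg and Cebpa, named here after their values were seen because their motifs were searched, had log2 fold changes of -0.23 and -0.26 (edgeR adjusted p = 0.802 and 0.816). Pparg was at 199.4 to 247.6 CPM in controls and 181.0 to 200.5 CPM in knockouts, an overlap of a single library on each side. Of the 14 regulators 3 had positive estimates, beside 49.7% of all tested genes, and the median log2 fold change was -0.13.

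Other droplet proteins were taken from a longer list. Of 28 listed, 26 passed the low-count filter, 0 had an edgeR adjusted p under 0.05, and 2 had an unadjusted p under 0.05, a share near the 6.39% of all tested genes. Pnpla3, a droplet-bound acyltransferase and lipase, was at 102.7, 84.59, 89.62 and 111.6 CPM in controls and at 88.36, 41.37, 55.70 and 72.50 CPM in knockouts. Only knockout replicate 1 reached the control range (log2 fold change -0.59, 95% interval -1.02 to -0.16, edgeR adjusted p = 0.579). Vps13a, a bridge-like lipid transfer protein at organelle contacts, went from 39.85 ± 2.25 to 49.42 ± 6.74 CPM (SD, n = 4, edgeR adjusted p = 0.765). The median of the list was -0.04.

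The lipases and regulators that act at the perilipin coat included the lipases encoded by Pnpla2, Lipe and Mgll and the lipase activator encoded by Abhd5, which perilipin 1 binds. All 11 listed genes were tested, and 0 passed the adjusted or the unadjusted threshold. Of the 11, 8 had negative and 3 positive estimates, with a median log2 fold change of -0.10. The smallest p belonged to Hilpda, a hypoxia-induced inhibitor of the lipase ATGL, at 16.27, 12.44, 10.22 and 7.62 CPM in controls and 32.22, 13.99, 9.61 and 22.1 CPM in knockouts. Knockout replicates 1 and 4 exceeded all controls and the other knockouts did not (log2 fold change 0.70, 95% interval -0.06 to 1.47, edgeR adjusted p = 0.815). Abhd5 went from 143.2 ± 24.03 to 119.4 ± 15.99 CPM (SD, n = 4), with an edgeR adjusted p of 0.816.

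Lipid enzymes that work beside seipin and FIT2 had mostly negative estimates, none of which passed the adjusted threshold. Of 10 listed and tested, 9 had negative estimates and 1 a positive one, where 49.7% of all tested genes were positive. The median was -0.20. Negative estimates were also the more frequent among the lipases (8 of 11), the regulators (11 of 14) and the adipocyte markers (11 of 14). These counts are not separate, since the lists share genes. Lipe, Pnpla2 and Adrb3 are in both the lipase and the adipocyte list, and Pparg is in both the regulator and the adipocyte list. Of the 10 enzymes 0 passed an edgeR adjusted p of 0.05. An unadjusted p under 0.05 was found for 3, all lower, where 2.86% of all tested genes did so in that direction. Agpat2, the lysophosphatidic acid acyltransferase whose loss causes lipodystrophy as loss of seipin does, was at 487.8, 534.1, 517.4 and 611.6 CPM in controls and at 368.0, 229.5, 283.7 and 561.6 CPM in knockouts. Its knockout replicate 4 lay among the controls and the other 3 lay below them (log2 fold change -0.57, edgeR adjusted p = 0.743). Dgat1, which makes triglyceride in the endoplasmic reticulum, had a log2 fold change of -0.35 (edgeR adjusted p = 0.695), and Gpat3, the glycerol phosphate acyltransferase that binds seipin, one of -0.33 (edgeR adjusted p = 0.743).

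**Figure D4:**
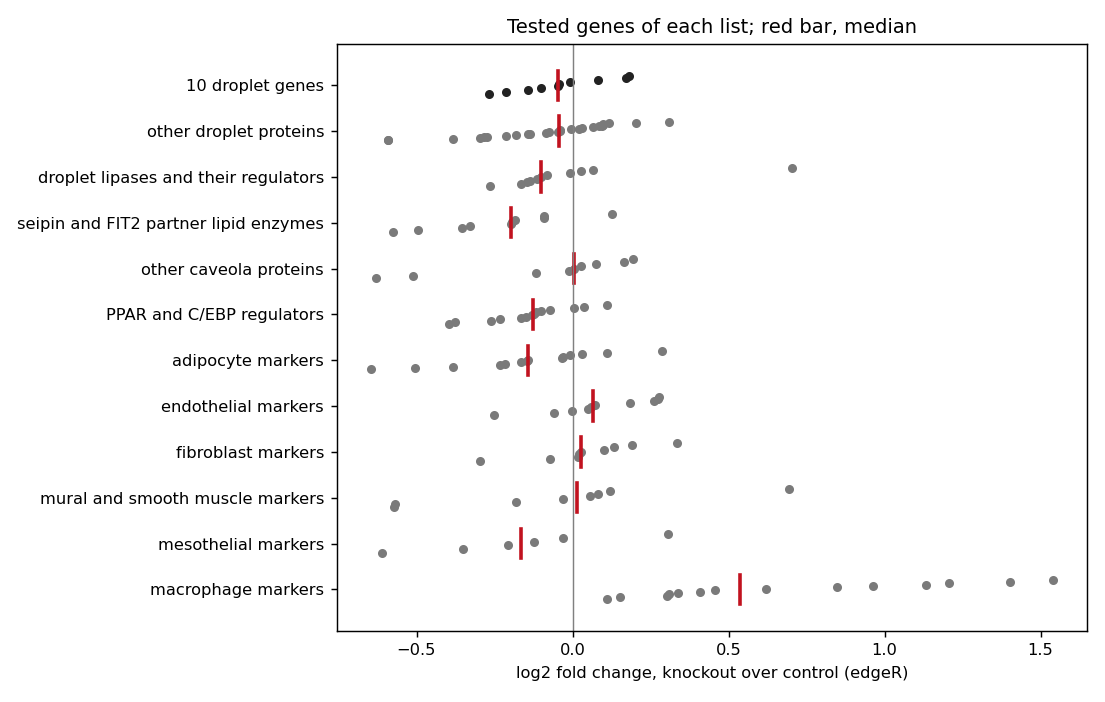
Log2 fold change, knockout over control (horizontal axis), of each tested gene in the 10 droplet genes, the 5 wider lists and the marker lists with at least 6 tested genes; the red bar is the list median. The droplet genes lie between -0.27 and 0.18, and all 14 macrophage markers lie above 0.

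Among other caveola proteins, Cav2 had the smallest p. Of 11 listed, 9 were tested and 0 passed an edgeR adjusted p of 0.05, and 2 had an unadjusted p under 0.05, beside 6.39% of all tested genes. Caveolin 2 forms mixed oligomers with caveolin 1, and Cav2 (chromosome 6, 17281185 to 17289115) ends 17.2 kb before Cav1 on the same strand. Cav2 was at 751.7, 754.7, 719.1 and 384.9 CPM in controls and at 410.7, 390.6, 377.8 and 508.3 CPM in knockouts. Controls 1 to 3 exceeded every knockout library, and control replicate 4 fell inside the knockout range. With all libraries the log2 fold change was -0.63 (95% interval -1.06 to -0.20, edgeR adjusted p = 0.499), and without control replicate 4 it was -0.81 (edgeR adjusted p = 0.00474), past the threshold, so that library decides whether Cav2 is called. Pacsin3, a membrane-bending protein of caveolae, went from 34.64 ± 8.07 to 24.38 ± 2.69 CPM (SD, n = 4, edgeR adjusted p = 0.684).

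Set against Cav1 within each library, Cav2 did not overlap between the genotypes. The log2 ratio of Cav2 to Cav1 was -1.95, -1.84, -1.78 and -2.34 in controls and -2.52, -2.38, -2.52 and -2.45 in knockouts. All 4 knockout ratios lay below the lowest control ratio, by a small margin in knockout replicate 2. The means were -1.98 ± 0.251 and -2.47 ± 0.0696 (SD, n = 4). The log2 ratio of Cavin1 to Cav1 also did not overlap, at -1.10 to -0.79 in controls and -0.76 to -0.34 in knockouts, with a gap between the groups that was small beside their spread. Of all tested genes, 3.37% had a ratio to Cav1 that did not overlap. The Cav1 ratios were chosen after the values were seen and have no test.

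**Figure D5:**
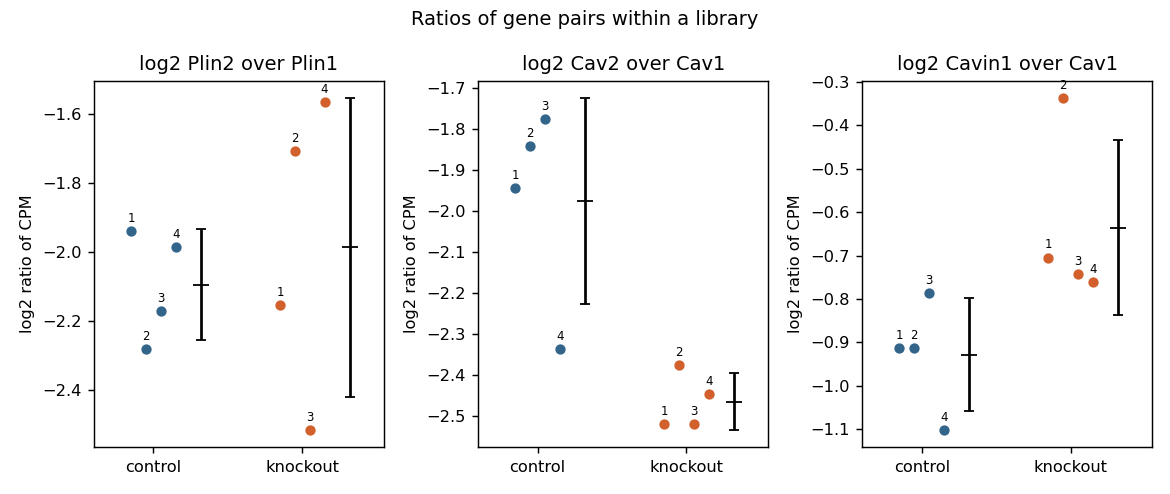
Log2 ratio of CPM within a library for Plin2 over Plin1, Cav2 over Cav1 and Cavin1 over Cav1 (vertical axes, which do not start at 0); points are libraries with their replicate number, and the bar is the mean ± SD. The Plin2 to Plin1 ratios of the genotypes overlap, the Cav2 to Cav1 ratios lie between -2.52 and -2.38 in the knockout libraries, and knockout replicate 2 has the highest Cavin1 to Cav1 ratio.

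Markers of the cell types in the depot are given for the same libraries. None of 14 adipocyte markers passed an adjusted p of 0.05 in edgeR, 2 had an unadjusted p under 0.05 (6.39% of all tested genes), 3 had positive estimates (49.7% of all tested genes), and their median log2 fold change was -0.14. Their summed level ran from 44563 to 58675 CPM in controls and from 36996 to 54483 CPM in knockouts. The most negative estimate among them was that of the hormone gene Retn, at 2018 to 2729 CPM in controls and 1355 to 1699 CPM in knockouts. Its libraries did not overlap, as was so for 4.23% of all tested genes (log2 fold change -0.65, edgeR adjusted p = 0.0735). Fibroblast markers summed to 3682 to 4480 and 3977 to 5076 CPM, and mural and smooth muscle markers to 768 to 1006 and 769 to 916 CPM. Mesothelial markers reached 283 CPM in control replicate 4, above the 86.6 to 189 CPM of the other controls and the 107 to 174 CPM of the knockout libraries. Lymphocyte markers summed to 11.6 to 12.8 and 9.26 to 25.3 CPM, and epididymal epithelium markers to at most 8.46 CPM in any library. Mitochondrially encoded genes took 10.7% to 12.4% of the counts in controls and 8.71% to 10.1% in knockouts, without overlap. The part of cell makeup and of this share in the droplet gene values was not tested.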

How the data were processed

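BRB-seq, which reads the 3′ ends of oligo-dT-primed cDNA, was run on total RNA with 51-base reads, per the labels' protocols. The authors deposited estimated counts per gene without normalization. Salmon and GRCm38 are named per the submitters' processing notes, without a version or annotation. Of 34866 genes, 34582 were paired with a symbol by Ensembl identifier without version, and coordinates come from GENCODE M21 (GRCm38). Estimated counts were rounded to whole numbers and fitted with edgeR 4.0.16 in R 4.3.3 (robust quasi-likelihood F test, genotype only, TMM factors, filterByExpr), with Benjamini-Hochberg adjustment over 12480 genes and a threshold of 0.05. Standard errors and 95% intervals of log2 fold changes were derived from the F statistic and its degrees of freedom. A count of 0 allows up to 3 counts, or 0.982 to 1.95 CPM before TMM scaling, for counting error only. Replicate pairs differed by more than sampling noise (chi-square per degree of freedom 4.49 to 9.42), so each library was counted once.

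Genes named beyond the 10 droplet genes and Cyp19a1 are, in each of 5 wider lists, those with an unadjusted p under 0.05 (at most 6, or the 2 with the smallest p), and the 5 nearest profiles of Plin1 and of Plin2. Pparg, Cebpa, Adipoq, Retn, Adrb3, Gng3 and the lipase genes Pnpla2, Lipe and Mgll are outside that rule and were chosen after their values were seen. AC129217.1 and 2310001K24Rik are named only as overlapping genes and are not in the deposited table. The members and lists were chosen with earlier results of these data known. Exact permutation tests used scipy 1.17.1. Alternatives were RLE and upper-quartile factors, library totals, no low-count filter, DESeq2 1.42.0, limma-voom with quality weights (limma 3.58.1), the replicate number as a block and leaving out each library.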

Additional observations from a re-analysis of the deposited data

Results flagged for a closer look

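Dixon's criterion for a lone high or low value was applied to each genotype's 4 libraries, for the 10 genes, the 3 ratios and the summed share. It picked out 2 libraries in 28 such sets, and 1.4 would arise by chance. Plin1 stood at 989.4 CPM in knockout replicate 1, while the other 3 knockouts had 744.7 to 760.6 CPM. Without that library the Plin1 log2 fold change went from -0.0477 to -0.157. The log2 ratio of Cavin1 to Cav1 reached -0.336 in knockout replicate 2, while the other 3 knockouts had -0.761 to -0.705.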

How the results depend on the processing

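No droplet gene passed an adjusted p of 0.05 under any of the 15 alternatives, with 0.68 the smallest adjusted p. An unadjusted p under 0.05 occurred in 2 of those fits, among them Bscl2 without the low-count filter. The signs of Plin3, Plin4, Plin5, Bscl2, Cav1 and Cavin1 held in all 15, while those of the other 4 genes turned in some. With library totals alone, which move the median of all tested genes from -0.0014 to 0.0663, Plin1 went to 0.021, Cidec to 0.056 and Fitm2 to 0.0245. When 1 library was left out, Plin1 ranged from -0.158 to 0.0448, Plin2 from -0.027 to 0.247, Cidec from -0.115 to 0.111 and Fitm2 from -0.16 to 0.0799. The 6 genes that held their sign also moved, from -0.196 to -0.0758 for Plin3, 0.0804 to 0.263 for Plin4, -0.372 to -0.0688 for Plin5, -0.348 to -0.153 for Bscl2, -0.206 to -0.0253 for Cav1 and 0.0265 to 0.25 for Cavin1. The number of all tested genes past the threshold, 21, became 58 without the filter and 53 with DESeq2, and 4 (without control replicate 2) to 43 (without control replicate 4) when 1 library was left out. DESeq2 and limma-voom with quality weights called 0 genes of the wider lists, as edgeR did. In the wider lists 0 to 1 genes passed when 1 library was left out, the 1 being Cav2 without control replicate 4. Cyp19a1, at -0.446 as a log2 ratio of mean CPM, ranged from -1.18 to 0.327 and turned without control replicate 3. The cause of these changes was not tested, apart from the fewer libraries or the different set of genes that an alternative holds by construction.

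With the replicate number as a block, 6 of all tested genes passed and 0 droplet genes. The deviation from the group mean correlated, between libraries of the same number, at 0.25, -0.06, -0.01 and -0.24, and 1 of 4 libraries correlated best with its own number. With only 4 libraries per genotype, these values cannot decide whether equal numbers mark pairs. Depth limits Plin5 most, at 20 to 45.3 counts per library.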
